A study of Mus musculus with 8 samples.

Results

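The 4 control libraries of this study, made from RAW264.7 cells that carry a non-silencing shRNA (shNS), fell into 2 pairs by their measured expression, and the genes that set the pairs apart are described here. RAW264.7 is an established mouse macrophage-like line. One pair holds shNS replicate 2, grown with doxycycline, and the single shNS library grown without it, and is called the Fn1-high pair. The other holds shNS replicates 1 and 3, both grown with doxycycline, and is called the Fn1-low pair. The pairs were chosen by the measured similarity of expression across genes and not by treatment, and they are 2 and 2 of the 4 shNS libraries among 8 libraries in all. The other 4 libraries carry an shRNA against Dis3l2 (shDis3l2), 3 with doxycycline and 1 without. Doxycycline, commonly used to switch on an shRNA, was given at 1 µg/mL, and all cells were taken after 4 days. The treatment of each library is as its label gives it, and whether labels or cultures were exchanged was not tested. Nothing in the labels says that the replicates were separate cultures, or how many clones stand behind each line.

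Because these same values chose the pairs, every difference between the pairs is given as a description, with no test and no p-value. Doxycycline and the pairing also cannot be told apart for the single library without it, since it lies in the Fn1-high pair. Levels are CPM, the counts of a gene divided by the scaled size of its library, and are not per length, so they compare libraries and not genes. A gene was counted where at least 2 of the 4 shNS libraries held at least 10 reads, which 14134 genes did. It was called split where the pairs did not overlap and the nearest libraries of the 2 pairs lay at least 2-fold apart, that is a gap of at least 1 on the log2(CPM + 0.5) scale.

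Macrophages read their surroundings through adhesion receptors, chemokine receptors and nuclear receptors, and the genes they express differ widely between tissues. Fibronectin, tenascin and osteopontin are matrix proteins that bind integrins, and activated or repairing macrophages can secrete them. The nuclear receptor Nr1i3 (CAR) is best known in liver, where it drives the cytochrome P450 gene Cyp2b10. MHC class II molecules present peptides to T cells and depend on the coactivator Ciita.

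The windows around the annotated starts of the widest split genes are shown first because these genes had some of the widest gaps between the pairs. They are RefSeq windows on GRCm38.p6, 250 bases before to 50 bases after the start, on the strand of the gene, with each CG dinucleotide in capitals. Nr1i3 (chr1:171213720-171214019, plus strand), Cyp2b10 (chr7:25897408-25897707, plus strand), Ackr3 (chr1:90203730-90204029, plus strand) and Chst1 (chr2:92600867-92601166, plus strand) were higher in the Fn1-high pair. The RefSeq start of Chst1 lies inside the gene as GENCODE draws it, which begins at 92599707. Pcdh7 (chr5:57717831-57718130, plus strand) and Flt1 (chr5:147725962-147726261, minus strand) were higher in the Fn1-low pair. Fn1 is not shown.
Nr1i3: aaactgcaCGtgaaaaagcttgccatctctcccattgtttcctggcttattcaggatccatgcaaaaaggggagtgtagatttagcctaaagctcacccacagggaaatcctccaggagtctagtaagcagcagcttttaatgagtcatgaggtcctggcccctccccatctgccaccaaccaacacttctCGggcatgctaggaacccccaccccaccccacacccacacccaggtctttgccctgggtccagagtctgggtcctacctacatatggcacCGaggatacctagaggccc
Cyp2b10: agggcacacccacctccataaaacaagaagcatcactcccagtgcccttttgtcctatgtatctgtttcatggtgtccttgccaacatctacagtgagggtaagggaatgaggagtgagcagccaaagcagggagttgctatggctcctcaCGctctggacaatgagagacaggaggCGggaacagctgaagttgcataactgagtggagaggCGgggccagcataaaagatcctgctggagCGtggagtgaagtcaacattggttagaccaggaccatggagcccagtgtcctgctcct
Ackr3: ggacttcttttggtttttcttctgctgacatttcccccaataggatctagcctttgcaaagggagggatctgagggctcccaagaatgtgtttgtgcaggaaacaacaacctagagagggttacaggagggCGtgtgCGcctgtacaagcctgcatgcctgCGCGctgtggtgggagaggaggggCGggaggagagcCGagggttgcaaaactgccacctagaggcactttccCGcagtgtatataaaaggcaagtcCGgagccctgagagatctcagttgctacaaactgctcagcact
Chst1: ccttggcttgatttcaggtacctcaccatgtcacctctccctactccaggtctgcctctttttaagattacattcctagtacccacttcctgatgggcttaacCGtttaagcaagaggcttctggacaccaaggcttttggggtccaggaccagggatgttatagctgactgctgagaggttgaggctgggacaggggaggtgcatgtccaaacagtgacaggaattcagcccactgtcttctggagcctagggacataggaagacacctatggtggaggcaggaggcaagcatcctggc
Pcdh7: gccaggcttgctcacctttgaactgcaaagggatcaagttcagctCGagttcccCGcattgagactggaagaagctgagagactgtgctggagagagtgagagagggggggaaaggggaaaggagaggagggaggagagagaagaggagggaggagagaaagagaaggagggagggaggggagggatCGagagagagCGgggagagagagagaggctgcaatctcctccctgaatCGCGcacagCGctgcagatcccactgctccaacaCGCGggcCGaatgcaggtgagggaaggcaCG
Flt1: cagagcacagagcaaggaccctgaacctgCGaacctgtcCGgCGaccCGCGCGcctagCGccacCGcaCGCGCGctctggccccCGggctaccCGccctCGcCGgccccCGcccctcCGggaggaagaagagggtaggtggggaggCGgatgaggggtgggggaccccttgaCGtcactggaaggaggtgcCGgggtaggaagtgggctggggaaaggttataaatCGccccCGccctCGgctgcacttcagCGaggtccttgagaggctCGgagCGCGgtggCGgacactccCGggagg

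Of the 4 windows shown for genes higher in the Fn1-high pair, CG dinucleotides numbered 3 in Nr1i3, 4 in Cyp2b10, 8 in Ackr3 and 1 in Chst1. The median over 7228 counted genes with 1 window was 21, with quartiles of 14 and 29. Pcdh7 held 11 and Flt1 held 29. Other genes with wide gaps and 1 window varied in both directions. Of those higher in the Fn1-high pair, Ccl6 and Abcb1a held 2 each, P2ry13 6, Plpp3 11, Fam20a 13 and Col23a1 24. Of those higher in the Fn1-low pair, Cd44 held 6, Gda 9, Vim 11, Osbpl3 14, Ptger4 25 and Nectin3 40. The Abcb1a window (chr5:8566841-8567140) lies well before the gene as GENCODE draws it, which begins at 8660077. These are counts for single genes: 76.1% and 77.8% of the protein-coding split genes had a window, under the 80% needed, so no comparison of the sets was made.

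Each library was first checked as macrophage-like. Csf1r, Cd68, Lyz2, Ptprc, Spi1, Cd14, Itgam and Adgre1 were expressed in all 4 shNS libraries, and none of these 8 markers was split. Csf1r, the receptor for the macrophage growth factor, stood at 1488 and 1182 CPM in the Fn1-high pair and at 1297 and 1837 CPM in the Fn1-low pair. Adgre1, which encodes F4/80, lay at 62.8 and 78.5 CPM against 121 and 98.9 CPM, lower in the Fn1-high pair without reaching the 2-fold gap. Lyz2 (4069 and 3747 CPM against 5558 and 6927 CPM) and Itgam (194 and 134 CPM against 270.0 and 251.5 CPM) lay the same way, so 3 of the 8 markers did not overlap. Dis3l2, the target of the other line's shRNA, overlapped between the pairs at 28.5 and 29.5 CPM against 33.0 and 21.9 CPM. The shNS libraries held 30341847 to 37407697 counts, and the totals of the pairs overlapped. Mitochondrial genes took 2.94 and 2.69% of counts in the Fn1-high pair and 3.59 and 3.00% in the Fn1-low pair, which did not overlap, and the part of this in the results was not tested.

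Of the 14134 genes counted, 404 (2.86%) were split and higher in the Fn1-high pair, and 292 (2.07%) were split and higher in the Fn1-low pair, 4.92% in all. Without the 2-fold minimum, 22.9% of genes did not overlap with the Fn1-high pair above, and 21.2% with the Fn1-low pair above. These shares are the background for every list below. At a 4-fold gap 155 and 93 genes remained, and at 16-fold 55 and 12, so the widest gaps were more often higher in the Fn1-high pair. Leaving out 1 library widens the sets by construction, to 489 to 604 and 368 to 552 genes, the latter set to 552, 492 and 504 without replicate 1, 2 and 3. Requiring 10 counts in all 4 libraries left 214 and 218. Just inside the threshold stood Otx1 (0.378 and 0.201 CPM against 1.63 and 1.26 CPM) and Myg1 (28.2 and 31.3 CPM against 13.8 and 13.8 CPM). Just outside stood Dock9 (gap 0.9973) and Tle1 (gap 0.9975, higher in the Fn1-low pair).

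Many split genes were near zero on 1 side. Of the 404 genes higher in the Fn1-high pair, 227 were under 1 CPM in both other shNS libraries, 58 had no count there, and 148 reached the count minimum only through the pair in which they were high. For the 292 genes higher in the Fn1-low pair those numbers were 99, 12 and 46. Among protein-coding genes, 351 and 248 of 11323 were split, and among lincRNA genes 19 and 6 of 351. None of the 33 snoRNA genes counted was split.

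**Figure D1:**
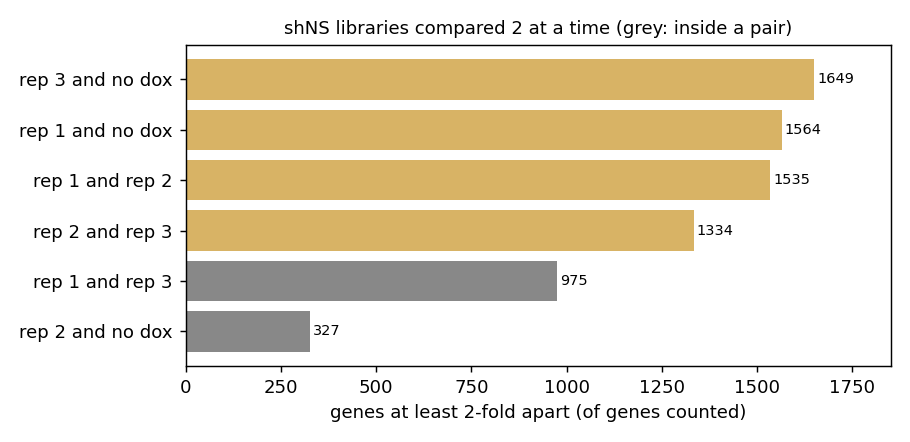
Bars give the number of genes at least 2-fold apart between 2 single shNS libraries on the log2(CPM + 0.5) scale, of 14134 genes counted, with the comparisons inside a pair in grey. Replicate 2 and the library without doxycycline differed at 327 genes, replicates 1 and 3 at 975, and libraries of different pairs at 1334 to 1649.

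The 2 pairs were not equally tight, as the plot of libraries compared 2 at a time shows. Replicate 2 and the library without doxycycline were at least 2-fold apart at 327 genes (r = 0.989 across genes, which are not independent). Replicates 1 and 3 were 2-fold apart at 975 genes (r = 0.978). Libraries from different pairs were 2-fold apart at 1334 to 1649 genes. For 656 of the 696 split genes the gap between the pairs exceeded the larger difference inside a pair, with medians of 1.64 and 0.54 on the log2 scale. Principal components of all 8 libraries were drawn from the genes counted, which were chosen on the shNS libraries alone. Genes expressed only in shDis3l2 did not enter, and the shNS values are those that chose the pairs. Positions on these axes are therefore a description only. The first component held 59.4% of the variance. It placed replicate 2 and the library without doxycycline at -75.2 and -72.3 and replicates 1 and 3 at -6.20 and -11.7. The shDis3l2 libraries lay at 38.24 to 44.98, so the Fn1-low pair stood between the Fn1-high pair and the other line on this axis. On the second component, with 18.8% of the variance, it stood apart instead. Replicates 1 and 3 lay there at 38.4 and 50.3, and all other libraries at -28.6 to -3.19.

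**Figure D2:**
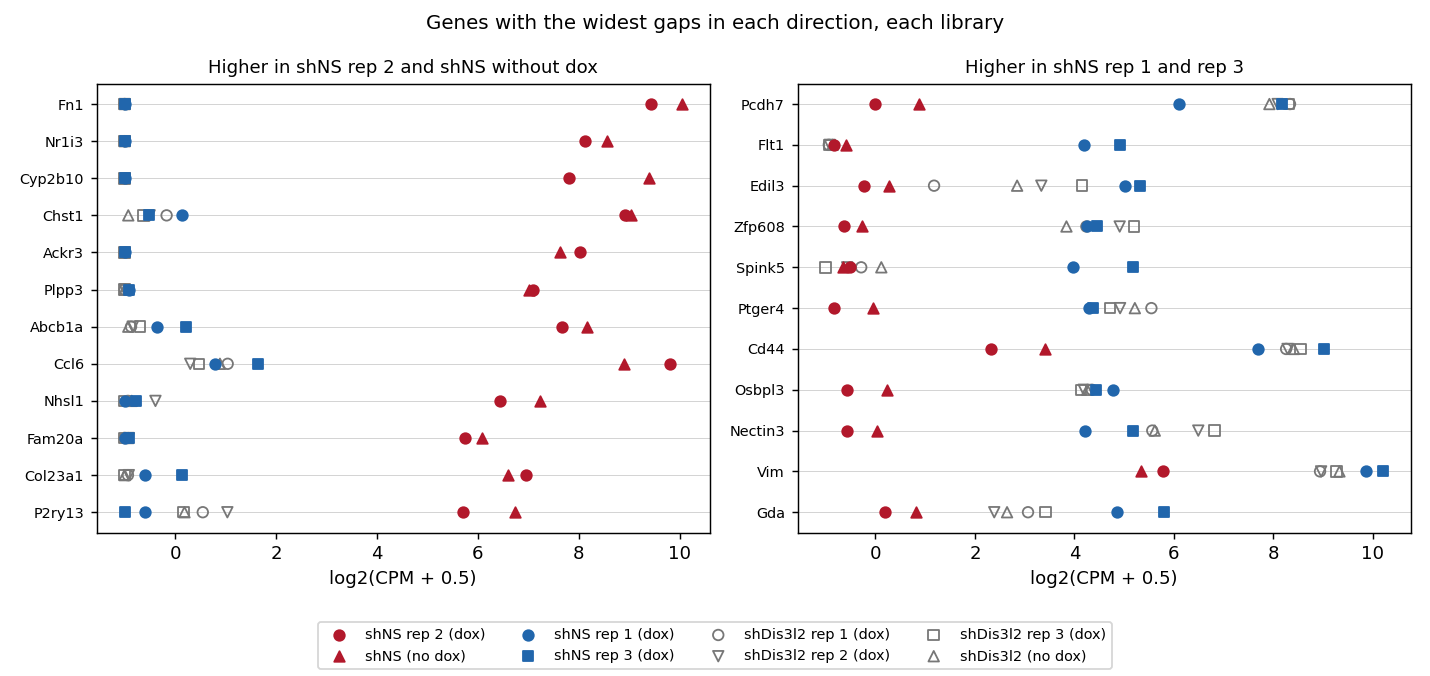
Each row is a gene and each point a library, on the log2(CPM + 0.5) scale, for split genes with the widest gaps in each direction. Fn1, Nr1i3, Cyp2b10 and Ackr3 had no count in replicates 1 and 3 or in the 4 shDis3l2 libraries, while most genes of the right panel were also expressed in shDis3l2.

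The widest gap belonged to Fn1, fibronectin, a matrix glycoprotein that binds integrins (chromosome 1, 71585520 to 71653200). It stood at 694 CPM in replicate 2 and 1054 CPM without doxycycline, and had no count in replicates 1 and 3. Against a floor of 3 counts per library, it was at least 7345-fold higher in the Fn1-high pair. Fn1 also had no count in any shDis3l2 library, so 2 of 8 libraries carried it at all.

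Nr1i3, the constitutive androstane receptor, and Cyp2b10, the cytochrome P450 gene it is known to drive, showed the same pattern. Nr1i3 (chromosome 1, 171213970 to 171220701) was at 280 and 380 CPM in the Fn1-high pair. Cyp2b10 (chromosome 7, 25897620 to 25926624) was at 225 CPM in replicate 2 and 670 CPM without doxycycline. Neither had a count in the other 6 libraries, and the nearest values were at least 2966-fold and at least 2378-fold higher. Both pairs were therefore fully separated at both genes, whereas the 2 libraries of the Fn1-high pair differed more for Cyp2b10 than for Nr1i3.

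Ackr3, an atypical receptor that scavenges the chemokine Cxcl12, was at 260 and 198 CPM in the Fn1-high pair with no count elsewhere, at least 2097-fold higher (chromosome 1, 90203980 to 90216751). Chst1, a sulfotransferase acting on keratan sulfate, was detected at a trace in the Fn1-low pair. It stood at 482 and 525 CPM against 0.598 and 0.201 CPM, an 805-fold gap between the nearest libraries (chromosome 2, 92599707 to 92615250). The 4 shDis3l2 libraries held 0.0255 to 0.390 CPM of Chst1, on the side of the Fn1-low pair.

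The next widest genes higher in the Fn1-high pair covered transport, signalling and secretion. Plpp3, a lipid phosphate phosphatase, was at 136 and 128 CPM against 0.0315 and 0.0287 CPM. That rests on 1 read in each low library, and the ratio was 4073 (95% counting interval 731 to 160900). Abcb1a, the drug efflux pump P-glycoprotein, was at 204 and 286 CPM against 0.283 and 0.660 CPM, a 309-fold gap. Ccl6, a macrophage chemokine, was at 900 and 478 CPM against 1.23 and 2.61 CPM, a 183-fold gap. All of them stayed under 2 CPM in every shDis3l2 library. Nhsl1, Fam20a (a secretory-pathway protein that assists the kinase Fam20c), Col23a1 (a transmembrane collagen) and P2ry13 (an ADP receptor) completed the 12 widest, with gaps of 6.32 to 7.21.

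The widest genes in the other direction had smaller gaps, and each had a read in both libraries of the low side. Pcdh7, a protocadherin, was at 68.5 and 287 CPM in replicates 1 and 3 and at 0.496 and 1.34 CPM in the Fn1-high pair, a 51.1-fold gap. It was also expressed in all 4 shDis3l2 libraries, at 241 to 322 CPM. Flt1, a VEGF receptor, differed from it. It was at 17.8 and 29.9 CPM against 0.0583 and 0.164 CPM, a 109-fold gap, and at 0.0229 to 0.0510 CPM in shDis3l2, so replicates 1 and 3 of shNS were the only libraries above 1 CPM.

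Cd44, the receptor for hyaluronan and osteopontin, was at 207 and 517 CPM in replicates 1 and 3 and at 4.52 and 10.1 CPM in the Fn1-high pair, a 20.5-fold gap. Vim, the intermediate filament protein vimentin, was at 929 and 1171 CPM against 54.7 and 40.0 CPM, a 17.0-fold gap. For Cd44 the shDis3l2 libraries (305 to 373 CPM) lay within the range of the Fn1-low pair, and for Vim (489 to 641 CPM) they lay below it but far above the Fn1-high pair. Ptger4, a prostaglandin E2 receptor, showed a 40.9-fold gap, and Nectin3, a cell adhesion molecule, a 34.7-fold gap. Edil3, Zfp608, Spink5, Osbpl3 and Gda followed, with gaps of -4.03 to -4.75, the minus sign marking a higher level in the Fn1-low pair.

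**Figure D3:**
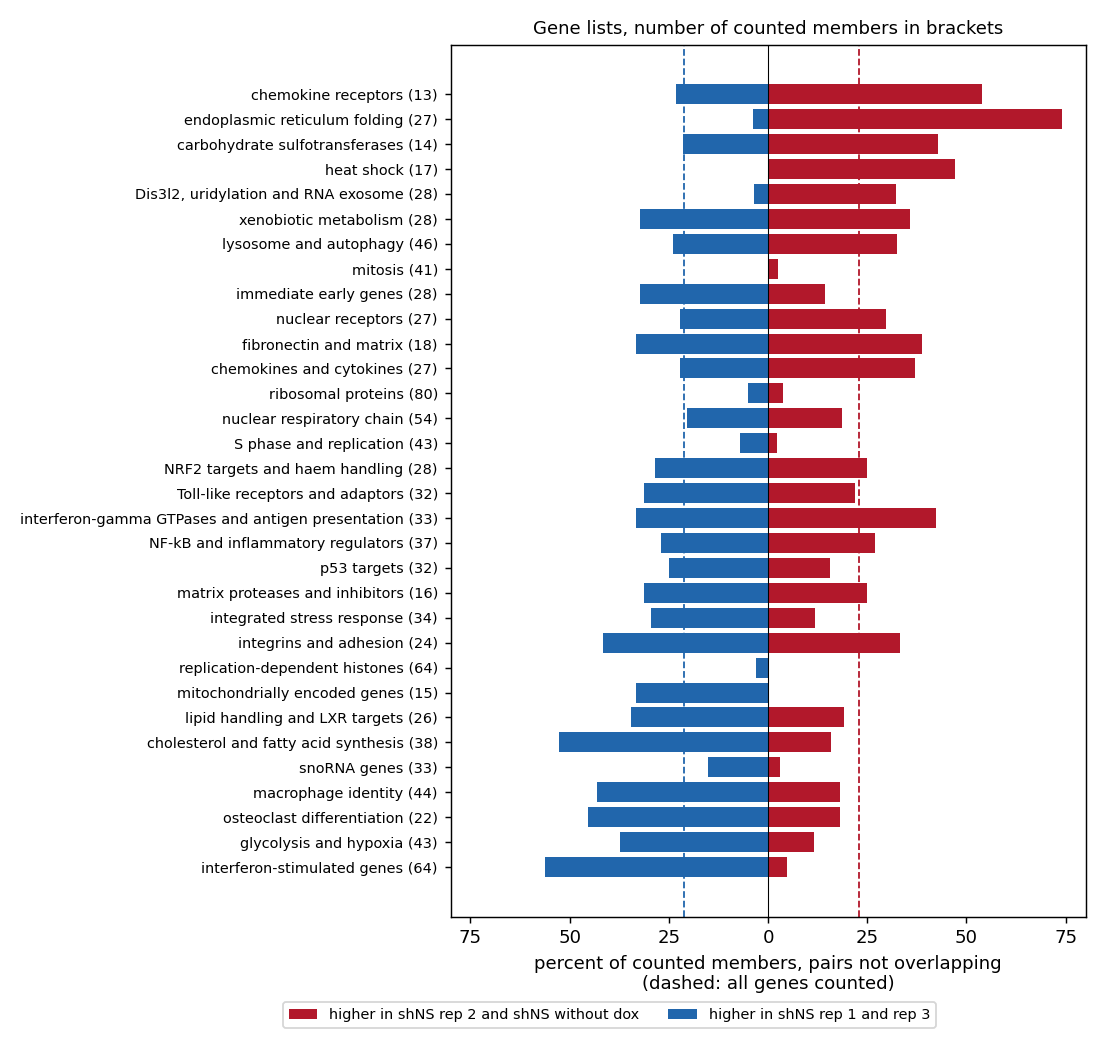
For each gene list with at least 10 counted members, bars give the percentage of counted members whose 2 pairs did not overlap, to the right where the Fn1-high pair was above and to the left where the Fn1-low pair was above. Dashed lines mark all genes counted (22.9% and 21.2%). Endoplasmic reticulum folding genes (20 of 27) reach farthest right and interferon-stimulated genes (36 of 64) farthest left.

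The gene lists were read against these shares. Among 18 counted genes of the fibronectin and matrix list, 7 were split and higher in the Fn1-high pair (Fn1, Tnc, Tgfbi, Lamb1, Nid2, Spp1 and Lama5) and 2 were higher in the Fn1-low pair (Emilin2 and Agrn). The median difference of the list was 0.02, against 0.0021 for all genes counted, with 7 members not overlapping on 1 side and 6 on the other. Tnc, tenascin C, was at 241 and 213 CPM against 0.315 and 2.32 CPM. Tgfbi, a secreted protein that binds integrins and collagens, was at 26.8 and 85.9 CPM against 0.567 and 0.143 CPM. Spp1, osteopontin, was abundant in all 4 libraries and still split, at 13790 and 9313 CPM against 811 and 2330 CPM. Emilin2, an elastic fibre glycoprotein, went the other way at 53.7 and 30.6 CPM against 257 and 393 CPM.

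Receptors for matrix also went both ways. Of 24 integrin and adhesion genes, 3 were split and higher in the Fn1-high pair (Itgb3, Itga9 and F11r) and 4 in the Fn1-low pair (Cd44, L1cam, Itgb7 and Itga7). Itgb3, the beta3 integrin chain that pairs with alpha v, was at 12.8 and 11.3 CPM against 0.252 and 0.201 CPM. Itga9, the alpha9 chain, a known tenascin and osteopontin receptor subunit, was at 5.92 and 3.72 CPM with no count in replicates 1 and 3, at least 39.4-fold higher. Cd44, also an osteopontin receptor, was lower in the same libraries, as given above. Of the 16 matrix proteases and inhibitors, Mmp13 was split toward the Fn1-high pair and Mmp12, the macrophage elastase, toward the Fn1-low pair.

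All 5 split nuclear receptors among 27 counted were higher in the Fn1-high pair. Besides Nr1i3, they were Rarb and Rxra, a retinoic acid receptor and its common partner, Esr1, the oestrogen receptor, and Vdr, the vitamin D receptor. Rarb was at 93.4 and 95.7 CPM against 17.2 and 20.4 CPM. Rxra was at 37.3 and 37.7 CPM against 8.66 and 5.25 CPM. Across the list 8 members did not overlap with the Fn1-high pair above and 6 with the Fn1-low pair above, and the median difference was 0.04.

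Xenobiotic metabolism was divided, with 4 of 28 counted genes split in each direction. Cyp2b10, Abcb1a, Gstm5 and Aldh3a1 were higher in the Fn1-high pair. Ahr, the aryl hydrocarbon receptor, its repressor Ahrr, and Ugt1a6a and Ugt1a7c, glucuronosyltransferases, were higher in the Fn1-low pair. Ahr had no count in the Fn1-high pair and stood at 2.61 and 1.26 CPM in replicates 1 and 3. Ugt1a7c was at 36.8 and 33.1 CPM against 85.1 and 93.8 CPM. Ugt1a genes share their 3' exons and Gstm genes are close copies, so RSEM's division of reads among them is an estimate.

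Split chemokines, cytokines and their receptors went both ways. Of 27 chemokine and cytokine genes, 5 were split and higher in the Fn1-high pair (Ccl6, Ccl24, Tgfb3, Ccl9 and Tnfsf14) and 2 in the Fn1-low pair (Cxcl16 and Ccl2). Ccl9, like Ccl6 a CC chemokine of myeloid cells, was at 1939 and 1780 CPM against 184 and 421 CPM. Cxcl16, a membrane-bound chemokine, was at 74.4 and 63.4 CPM in replicates 1 and 3 and at 1.95 and 3.61 CPM in the Fn1-high pair, a 17.6-fold gap. Of the 13 chemokine receptor genes, Ackr3 and Cxcr2 were split and higher in the Fn1-high pair, and Cx3cr1 and Ccr2 in the Fn1-low pair. Without the 2-fold minimum, 7 of the 13 did not overlap with the Fn1-high pair above and 3 with the Fn1-low pair above. The median difference of the receptor list was 0.84, and that of the chemokine and cytokine list 0.02. Cx3cr1, the fractalkine receptor, was expressed in all 4 libraries, at 42.4 and 75.8 CPM against 345 and 434 CPM.

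The macrophage identity list had 44 counted members, of which 5 were split toward the Fn1-high pair and 6 toward the Fn1-low pair. C1qa, C1qb and C1qc encode the chains of complement C1q, and Mertk and Axl are receptors for the uptake of dying cells. C1qc was at 43.8 and 96.1 CPM against 1.10 and 0.315 CPM. Mertk was at 41.3 and 46.4 CPM against 0.598 and 0.889 CPM. Axl was at 5.65 and 13.1 CPM against 0.0945 and 0.344 CPM, and it differed from the others in the shDis3l2 line, where it reached 140 to 224 CPM while Mertk had no count.

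The 6 macrophage genes higher in the Fn1-low pair were Msr1, Pirb, Siglec1, Clec4d, Cebpa and Mrc1. Msr1, the class A scavenger receptor, was at 86.9 and 200.3 CPM in replicates 1 and 3 and at 5.54 and 6.56 CPM in the Fn1-high pair. Siglec1, the sialic acid receptor CD169, was at 21.7 and 18.8 CPM against 4.63 and 2.68 CPM. Cebpa, a myeloid transcription factor, was at 19.9 and 45.5 CPM against 7.78 and 4.92 CPM. Counted without the 2-fold minimum, 8 members stood higher in the Fn1-high pair and 19 in the Fn1-low pair, with a median difference of -0.36.

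MHC class II genes made up all the split members of the list of interferon-gamma GTPases and antigen presentation, 5 of 33 counted, each higher in the Fn1-high pair. H2-Eb1, a class II beta chain, was at 53.1 and 107 CPM in the Fn1-high pair, 15.6 CPM in replicate 1 and 0.287 CPM in replicate 3. H2-Ab1 was at 42.5 and 60.8 CPM, 10.2 CPM and 0.459 CPM in the same order. Replicate 1 was therefore intermediate and replicate 3 near the shDis3l2 libraries, in which H2-Eb1 reached at most 0.436 CPM. Ciita, their coactivator, was not split and is named after its values were seen, and it followed the same order at 29.3 and 40.7 CPM, 17.2 CPM and 1.75 CPM. B2m, the light chain of class I, stood the other way at 238 and 175 CPM against 376 and 447 CPM, again with no 2-fold gap and named after its values were seen. Class II chains are related in sequence, so each single value is an estimate.

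Interferon-stimulated genes split in 1 direction. None of the 64 counted was split toward the Fn1-high pair and 9 (14.1%) were split toward the Fn1-low pair, against 2.07% of all genes. Without the 2-fold minimum 36 were higher in the Fn1-low pair and 3 in the Fn1-high pair, the others overlapping, with a median difference of -0.49. Summed over the list, replicate 1 stood at 2660 CPM and replicate 3 at 2044 CPM, close to replicate 2 at 1968 CPM, and the library without doxycycline at 1712 CPM. Ifi207, a member of the interferon-inducible p200 family, was at 57.0 and 54.3 CPM in replicates 1 and 3 and at 3.18 and 2.41 CPM in the Fn1-high pair. Ifi204, of the same family, was at 9.57 and 7.74 CPM against 1.11 and 0.328 CPM. Ifi27l2a was at 58.8 and 27.8 CPM against 7.55 and 6.29 CPM. The other 6 were Ifi211, Usp18, Slfn2, Samd9l, Oasl1 and Rtp4. Usp18, which removes ISG15 from proteins, was at 16.5 and 9.61 CPM against 2.71 and 1.07 CPM, and at 21.4 to 76.2 CPM in the shDis3l2 line.

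Innate sensing and immediate early genes were split toward the Fn1-low pair only, where 2.07% of all genes were split. Tlr8, Tlr13 and the C-type lectin Clec7a were split on the Toll-like receptor and adaptor list of 32 counted genes (9.4%). Cd40 and Tnip3 were split among 37 NF-kB and inflammatory regulators (5.4%). All of these were higher in the Fn1-low pair. Tlr8, a sensor of single-stranded RNA, was at 13.6 and 9.44 CPM against 0.146 and 0.438 CPM. Klf4, Klf6 and Atf3 were split among 28 immediate early genes (10.7%), again toward the Fn1-low pair. Klf4, a zinc finger factor of monocytes, was at 8.88 and 7.17 CPM against 0.0874 and 0.109 CPM, a 65.5-fold gap.

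RAW264.7 cells are known to form osteoclasts when stimulated. Of 22 counted genes, Itgb3 and Car2 were split toward the Fn1-high pair, and Dcstamp, Src, Atp6v0d2 and Tfec toward the Fn1-low pair, with a median difference of -0.44. Dcstamp, needed for cell fusion, was at 7.12 and 59.5 CPM in replicates 1 and 3 against 0.379 and 0.274 CPM. Car2, carbonic anhydrase 2, was at 2565 and 2289 CPM against 168 and 487 CPM. Replicate 3 stood above replicate 1 for both genes, so the Fn1-low pair was itself uneven here.

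Endoplasmic reticulum folding genes differed by small amounts in 1 direction. None of the 27 counted was split, yet 20 did not overlap with the Fn1-high pair above and 1, Atf6, with the Fn1-low pair above, with a median difference of 0.53. With scaling by library size alone Dnajb9 was split, with a gap of 1.04. Dnajb9, a co-chaperone of BiP, came nearest to the threshold at 35.2 and 34.2 CPM against 12.9 and 17.4 CPM. Hspa5, BiP itself, was at 1358 and 1136 CPM against 709 and 856 CPM (named after its values were seen). In the shDis3l2 line without doxycycline Hspa5 stood at 425 CPM, under all other libraries. Of 17 cytosolic heat shock genes, Hsp90aa1 was split, at 1820 and 1555 CPM against 509 and 681 CPM, and 8 in all did not overlap, each with the Fn1-high pair above.

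Glycolysis, hypoxia and sterol genes had more members higher in the Fn1-low pair. Among 43 glycolysis and hypoxia genes 16 did not overlap with the Fn1-low pair above and 5 with the Fn1-high pair above, with a median difference of -0.46. The list sums overlapped, at 18550 and 12440 CPM in the Fn1-high pair and 17420 and 21620 CPM in the Fn1-low pair. Ndrg1, a hypoxia-induced gene, was split at 222 and 223 CPM in replicates 1 and 3 against 32.5 and 3.75 CPM. Epas1, which encodes the hypoxia factor HIF-2alpha, was split in the opposite direction at 83.0 and 61.6 CPM against 3.46 and 5.22 CPM, and Ddit4 with it. Of 38 cholesterol and fatty acid synthesis genes, 20 stood higher in the Fn1-low pair and 6 in the Fn1-high pair, with a median difference of -0.24, and again the sums overlapped (4999 and 4381 CPM against 6041 and 4844 CPM). Acss2, which makes acetyl-CoA from acetate, was the 1 split member, at 30.2 and 17.3 CPM against 7.32 and 5.11 CPM.

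Other lists held 1 to 4 split members, several of them near or under the 4.92% of all genes. Split were 2 of 46 lysosome genes (4.35%), 2 of 34 integrated stress response genes (5.88%) and 2 of 32 p53 targets (6.25%). So were 2 of 28 NRF2 and haem genes (7.14%), 1 of 43 S phase genes (2.33%) and 1 of 64 histone genes (1.56%). Shares were higher for lipid handling (4 of 26, 15.4%) and sulfotransferases (2 of 14, 14.3%, Chst1 included). Atp6v0a1 and Ctsh (lysosome), Apoc2 and Pltp (lipid handling), Slc40a1 (the iron exporter ferroportin), Plk3 and Gadd45a (p53 targets) and Chst11 (a chondroitin sulfotransferase) were higher in the Fn1-high pair. Slc40a1 was at 111 and 167 CPM against 18.0 and 6.85 CPM, and Ctsh, cathepsin H, at 92.3 and 68.5 CPM against 3.24 and 1.49 CPM. Acot1, Angptl4, Prdx1, Aldh1l2, E2f2 and the histone gene Hist2h3c1 were higher in the Fn1-low pair. Prdx1, a peroxide-reducing enzyme, was at 516 and 544 CPM against 233 and 241 CPM.

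Several lists had no split member. No member was split among 41 mitosis genes, 80 ribosomal protein genes, 54 nuclear respiratory chain genes, 28 genes of Dis3l2, uridylation and the RNA exosome, or 15 mitochondrially encoded genes. Of the mitosis genes 1 did not overlap, and of the ribosomal protein genes 7 did not, in either direction. Of the 15 mitochondrially encoded genes 5 did not overlap, all with the Fn1-low pair above. Median differences were 0.05 for mitosis, 0.02 for ribosomal proteins and -0.18 for the mitochondrially encoded genes, whose share of counts was given above. The Dis3l2 and exosome list had 9 members above in the Fn1-high pair and 1 in the Fn1-low pair, without a 2-fold gap, and a median difference of 0.09.

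Markers of other cell types were low and mostly not counted. Of 22 lymphocyte markers 4 were counted and 10 had no read in any shNS library, of 20 granulocyte and mast cell markers 4 and 12, of 18 fibroblast markers 3 and 11, of 20 endothelial and epithelial markers 4 and 13, and of 14 hepatocyte markers 2 and 6. Cd3e, Ms4a1, Ly6g, Mpo, Dcn, Col3a1, Epcam, Fga and Ttr were among those with no read. Summed levels of the lymphocyte list were 6.18 and 6.76 CPM in the Fn1-high pair and 10.96 and 27.8 CPM in the Fn1-low pair, with Il7r the split member. The granulocyte list summed to 27.2 and 63.9 CPM against 16.9 and 6.51 CPM, with S100a8 and Cxcr2 higher in the Fn1-high pair and Csf3r in the Fn1-low pair. The hepatocyte list summed to 4.58 and 5.17 CPM against 1.01 and 0.946 CPM, with Ambp and Serpina1a split (Serpina1a not at a pseudocount of 1 CPM, gap 0.757) while Fga and Ttr were at 0. The fibroblast sum was 462 and 475 CPM against 1530 and 1752 CPM, and came almost wholly from Vim and S100a4. The endothelial and epithelial sum was 17.6 and 12.8 CPM against 6.55 and 8.29 CPM, and the dendritic sum 52.96 and 42.3 CPM against 53.9 and 95.01 CPM. In bulk RNA, fewer cells of a kind and less RNA per cell cannot be told apart, and whether each library held 1 uniform population was not tested.

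**Figure D4:**
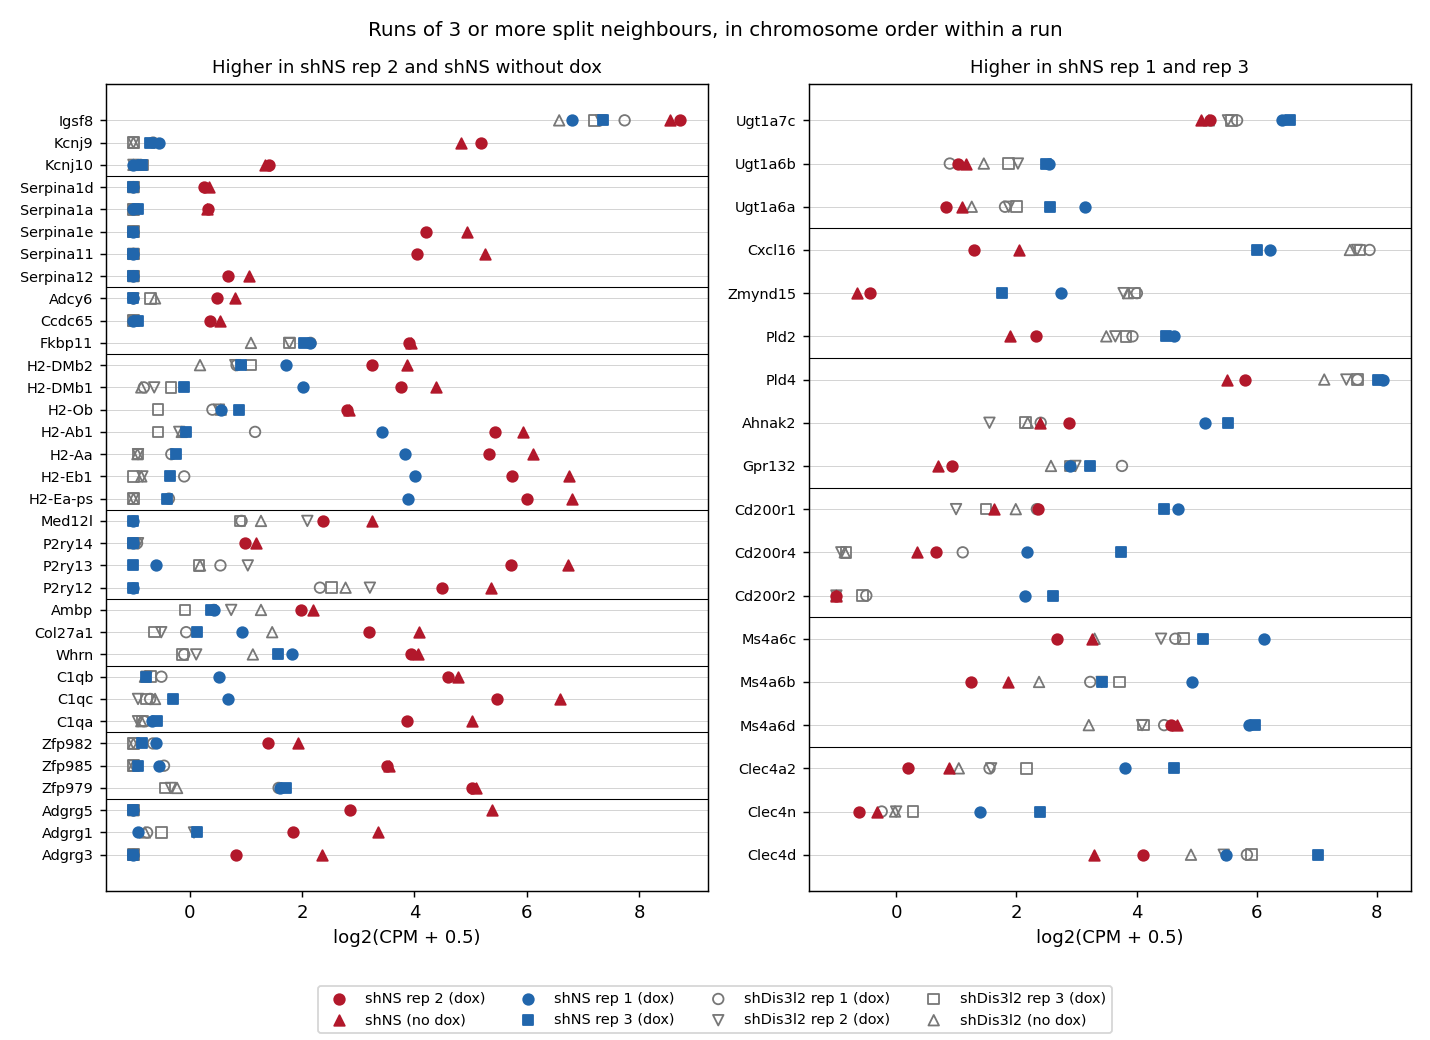
Each row is a split gene that lies in a run of at least 3 split genes of the same direction, each within 100 kb of the next. Genes with clone or predicted-gene names were left out before runs were formed. Each point is a library on the log2(CPM + 0.5) scale. Horizontal lines divide the runs. Replicate 1 held intermediate levels of most MHC class II genes, and at P2ry12 and Med12l the shDis3l2 libraries lay between the pairs.

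Position on the chromosome was not used to choose the pairs. Of the split genes, 119 of 404 (29.5%) higher in the Fn1-high pair and 92 of 292 (31.5%) higher in the Fn1-low pair had another split gene of the same direction within 100 kb. These shares include predicted genes and other types that can lie inside a split gene. Among protein-coding genes alone, 75 of 351 (21.4%) and 50 of 248 (20.2%) had a protein-coding neighbour split the same way, where 8.15% and 5.48% of all 11323 protein-coding genes counted lay that near to one. Runs were formed from split genes after leaving out clone and predicted-gene names, so runs that need such genes are not given. The longest run formed this way was 7 genes of the MHC class II region on chromosome 17, H2-DMb2 to H2-Ea-ps (34143307 to 34344645). Of 11 genes counted in that span, Psmb8, Psmb9, Tap1 and Tap2 were not split the same way. Other runs could likewise span counted genes outside them, so a run is not an unbroken block. A run on chromosome 3 held P2ry12, P2ry13 and P2ry14, receptors for extracellular nucleotides, inside the span of Med12l (59005825 to 59318682). P2ry12 was at 22.01 and 40.8 CPM with no count in replicates 1 and 3, at least 232.9-fold higher, and at 4.49 to 8.74 CPM in shDis3l2. Because these genes overlap, their reads can be assigned to either gene if strand was not used.

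Further runs higher in the Fn1-high pair held C1qa, C1qb and C1qc on chromosome 4, the adhesion receptors Adgrg1, Adgrg3 and Adgrg5 on chromosome 8, Igsf8, Kcnj9 and Kcnj10 on chromosome 1, and the protease inhibitor genes Serpina1a, Serpina1d, Serpina1e, Serpina11 and Serpina12 on chromosome 12. Serpina1e was at 18.0 and 30.1 CPM with no count in any other library. The Serpina1 genes are near-identical copies, so which copy is expressed is uncertain. Kcnj9, a potassium channel gene, was at 35.8 and 28.01 CPM against 0.189 and 0.115 CPM, whereas its neighbour Igsf8 was expressed in all 8 libraries and split by 2.30-fold.

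With clone and predicted-gene names left out, there were 6 runs of at least 3 genes higher in the Fn1-low pair. They held Clec4a2, Clec4n and Clec4d, C-type lectins on chromosome 6, Cd200r1, Cd200r2 and Cd200r4 on chromosome 16, Ms4a6b, Ms4a6c and Ms4a6d on chromosome 19, Ugt1a6a, Ugt1a6b and Ugt1a7c on chromosome 1, Pld4, Ahnak2 and Gpr132 on chromosome 12, and Cxcl16, Zmynd15 and Pld2 on chromosome 11. Clec4a2 was at 13.5 and 24.2 CPM in replicates 1 and 3 against 0.641 and 1.34 CPM. Zmynd15 was at 6.17 and 2.90 CPM against 0.233 and 0.137 CPM. The annotated spans of Cxcl16 and Zmynd15 overlap at the start of Cxcl16, so reads in the shared stretch can be assigned to either. No whole chromosome was shifted: the median difference of the genes of a chromosome at 5 CPM or more ran from -0.02 (chromosome 17) to 0.05 (chromosome 16), within 0.05 of that of all genes.

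**Figure D5:**
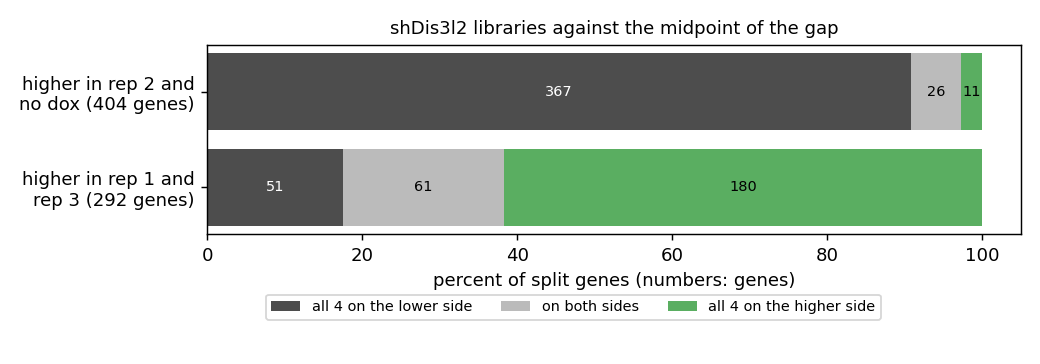
Bars divide the split genes of each direction by where the 4 shDis3l2 libraries lay against the midpoint of the gap between the shNS pairs, in percent of genes with the number of genes written in. Of 404 genes higher in the Fn1-high pair, 367 had all 4 shDis3l2 libraries on the lower side, and of 292 genes higher in the Fn1-low pair, 180 had all 4 on the higher side.

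The shDis3l2 libraries took no part in choosing the pairs, and their levels were set beside both. For the 404 genes higher in the Fn1-high pair, all 4 shDis3l2 libraries lay below the midpoint of the gap at 367 (90.8%), above it at 11, and on both sides at 26, and 67 genes had no count in the line. For the 292 genes higher in the Fn1-low pair, all 4 lay above the midpoint at 180 (61.6%), below at 51, and on both sides at 61. Genes that reached the count minimum through the higher pair alone are among them. Without those, all 4 lay below the midpoint at 232 of 256 genes higher in the Fn1-high pair, and above it at 156 of 246 genes higher in the Fn1-low pair. The difference between these shares was not tested. Axl, Flt1 and Spink5 were exceptions: Axl was high in shDis3l2 and low in the Fn1-low pair, while Spink5 was at 15.2 and 35.9 CPM in replicates 1 and 3 and at most 0.586 CPM in shDis3l2. At 122 of the 404 genes every shDis3l2 value was below both pairs, and at 66 of the 292 every one was above both. Both counts include genes that reached the count minimum through the higher pair alone. The same shares over all genes counted were not taken, so neither count is read as particular to split genes.

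Doxycycline was tested where the pairs do not enter, in the shDis3l2 line, with 3 libraries against 1 and the lone library assumed to vary like the others. In this line Dis3l2 was at 12.03, 13.6 and 14.96 CPM with doxycycline and 28.7 CPM without, so doxycycline and a lower Dis3l2 level cannot be told apart. In edgeR's quasi-likelihood test 1 of 14244 genes (0.00702%) had an adjusted p under 0.05, and 974 had an unadjusted p under 0.05. That gene was Angptl4, which encodes a lipoprotein lipase inhibitor, at 111, 92.7 and 106 CPM with doxycycline and 4.72 CPM without (fitted log2 difference 4.45, adjusted p in edgeR 0.0355). In the shNS line Angptl4 was split toward the Fn1-low pair, at 16.5 and 38.3 CPM against 6.50 CPM in replicate 2 and 5.50 CPM without doxycycline. DESeq2 called 229 genes in this comparison, and limma-voom and a fit of all 8 libraries as 4 groups called 0 (972 and 504 at an unadjusted p under 0.05), and leaving out 1 library gave 86 to 2044 edgeR calls, 2044 without shDis3l2 replicate 1.

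Of the split genes, 233 of the 404 and 277 of the 292 could be tested for doxycycline in shDis3l2. Their median log2 fold changes were -0.0039 and 0.12, against 0.0059 over all genes tested. Their 5% and 95% quantiles were -1.87 and 1.609 for the first set and -0.8526 and 1.675 for the second. Single split genes therefore moved in both directions, which the medians do not show. The same quantiles over all genes tested were not taken. Whether split genes moved more than other genes therefore cannot be read from these values. Fn1, Nr1i3, Cyp2b10 and Ackr3 had no count in either arm of that line and were not tested. Chst1 gave an adjusted p of 0.724 in edgeR and Cd44 0.958. A p above the threshold with 1 untreated library does not show that these genes are unaffected.

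The study's own comparison, shDis3l2 against shNS with doxycycline, pools replicates 1, 2 and 3 of shNS and so mixes the pairs. It shares those 3 libraries with the split and is given side by side only. In edgeR, 845 of 13752 genes (6.14%) passed, and 1157, 899 and 777 passed without shNS replicate 1, 2 and 3, while 464, 203 and 259 passed without shDis3l2 replicate 1, 2 and 3. Cxcl16 had an edgeR adjusted p of 0.329 with all 3 controls and 0.00304 without replicate 2, where the remaining controls (74.4 and 63.4 CPM) lie below the doxycycline-treated shDis3l2 libraries (204 to 235 CPM). Epas1 had 0.128 with all 3 controls and 0.00304 without replicate 2, and Gda, guanine deaminase, 0.469 and 0.0124. Other split genes had a higher edgeR adjusted p without replicate 2. Ccl6 went from 0.1823 to 0.4284, Chst1 from 0.1885 to 0.7143 and Ctsh from 0.2629 to 0.9615. Replicate 2 was set apart by these same values, so these p-values support nothing about the pairs. For H2-DMb1, a class II peptide-loading chain, the adjusted p in edgeR was 0.081 with all 3 and 0.0194 without replicate 3. Dis3l2 itself passed with all libraries and without each shNS replicate, lower in shDis3l2 by a fitted log2 value of -1.05. Its edgeR adjusted p was 0.0216, and 0.0404, 0.0348 and 0.0177 without shNS replicate 1, 2 and 3.

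The libraries inside a pair differed as well, and the genes given here were named after their values were seen. Without doxycycline, Tgfb3, a TGF-beta cytokine, was at 6.70 CPM against 166 CPM in replicate 2, although both exceeded replicates 1 and 3 (0.472 and 0.946 CPM). Vegfa was at 31.1 CPM against 182 CPM, and Eno2, a glycolytic enzyme, at 6.51 CPM against 37.9 CPM. Pmepa1, a TGF-beta-induced gene, went the other way at 76.5 CPM without doxycycline against 7.93 CPM. Tmem119 and Adgrg5 were split toward this pair and were again higher without doxycycline, at 35.1 against 6.30 CPM and 41.4 against 6.76 CPM. One library stands on each side, so doxycycline and the difference between 2 libraries cannot be told apart.

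Inside the Fn1-low pair, replicate 3 exceeded replicate 1 for Tnfrsf9 (57.7 against 2.71 CPM), a costimulatory receptor, Il1rn (230 against 24.2 CPM), the interleukin-1 receptor antagonist, and Cd36 (92.9 against 8.85 CPM), a fatty acid and scavenger receptor. Replicate 1 exceeded replicate 3 for the interferon-stimulated genes Ifi203 (84.1 against 23.9 CPM) and Oas1g (22.6 against 6.22 CPM). For Ifi203 replicate 3 lay close to replicate 2 (20.4 CPM), so this gene was not split although replicate 1 was high.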

How the data were processed

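Total RNA of 8 libraries was measured. Expected counts from RSEM, not normalized, were deposited by the authors for 55450 genes in 1 table. Per the submitters' processing notes, cutadapt, STAR 2.7 and RSEM were used with GRCm38 and mm10; the sources used here do not give other versions, the annotation release or the strand setting. All 55450 identifiers matched GENCODE M21, and every sample column was matched by name.

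Counts were rounded to whole numbers (4.68 to 5.24% of values in a library changed) and scaled by TMM over all 8 libraries, which held 30341847 to 45557831 counts. The difference used for list medians is the median of the 4 library-to-library log2 differences, Fn1-high minus Fn1-low. A fold is the ratio of the nearest libraries. It is a lower bound against a floor of 3 counts per library where the lower pair had no count, and has a 95% counting interval where that pair had 1 to 3 counts; floors and intervals cover counting error only.

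Tests were edgeR's quasi-likelihood test (R 4.3.3, edgeR 4.0.16, limma 3.58.1, DESeq2 1.42.0), two-sided with Benjamini-Hochberg adjustment, threshold 0.05; since replicates may be technical, p-values reflect no more than the variation among these libraries. No library pair agreed within counting noise (the smallest chi-square per gene was 18.4) and none was merged.

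The pairs, markers and 38 gene lists were chosen with earlier results of these data known. Named genes are the 5 markers and Dis3l2, the 12 widest gaps in each direction with at least 5 CPM in both higher libraries leaving out clone and predicted-gene names, and up to 3 split members of each list, or 1 where none was split (1 gene is not reported here); members listed only to complete a count, and genes of neighbour runs, fall outside this rule. Alternatives were other scalings, filters, pseudocounts, tools and left-out libraries.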

Additional observations from a re-analysis of the deposited data

How the results depend on the processing

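Split counts stayed within 1.5 times under DESeq2 size factors, library size alone, no filter, a mean of 1 CPM and pseudocounts of 0.1 and 1 CPM (318 to 527 genes higher in the Fn1-high pair, 239 to 388 in the Fn1-low pair). Requiring 10 counts in all 4 libraries left 214 and 218, since genes without counts in 1 pair drop out. A 4-fold gap left 155 and 93. Leaving out 1 shNS library gave 489 to 604 and 368 to 552. No named gene changed direction, but Hist2h3c1 (gaps -0.991 under library size alone, -0.889 at a pseudocount of 1 CPM), Kmo (-0.869) and Serpina1a (0.757, both at 1 CPM) fell under the 2-fold gap, and Dnajb9 (1.04 under library size alone) and Cdh5 (1.502 at 0.1 CPM) passed it. Library size alone thus left 0 split histones and 1 split endoplasmic reticulum folding gene. Scaling moved the median of all genes to -0.01 and 0.01 and list medians by at most 0.03. Pseudocounts moved the gaps of 33 and 25 of 89 named genes beyond the spread inside the pairs, mostly genes near zero. The doxycycline effect in shDis3l2 gave 1 call, 27 without a filter, 229 in DESeq2, 0 in limma-voom (972 at an unadjusted p under 0.05) and 0 with all 8 libraries as 4 groups (504), and 86 to 2044 leaving out 1 library. The line difference gave 845 calls, 1749 in DESeq2 and 861 in limma-voom, and 203 to 1157 leaving out 1 library (464, 203 and 259 without shDis3l2 replicate 1, 2 and 3). With the replicate number as a block it gave 421. Deviations of same-numbered libraries from their group means were weakly correlated across genes (r = -0.13, 0.03 and -0.00096). The shNS deviations include the split between the pairs, so these values cannot tell whether the numbers pair the samples. The causes of these moves were not tested.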
